A study of Mus musculus with 12 samples.

Results

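The ZFP36, Regnase and Roquin families are RNA-binding proteins that bring about the decay of cytokine mRNA. The 7 genes followed here are Zfp36, Zfp36l1 and Zfp36l2, the Regnase genes Zc3h12a and Zc3h12d, and the Roquin genes Rc3h1 and Rc3h2. They were chosen by gene symbol, and all 7 of the 7 listed were among the 11022 genes of the expression table. The mRNA came from cytotoxic T lymphocytes (CTL) of P14 mice, whose CD8 T cells carry a single transgenic T cell receptor (TCR) that recognises the LCMV peptide gp33-41. The cells came from lymph nodes or spleens of 3 adult female mice, were activated for 48 h with gp33-41, IL-2 and IL-12 and were then expanded in IL-2 at 20 ng/mL. On day 7 they were plated in IL-2, rested for 1 h and divided into 4 groups with 3 replicates each. Unstimulated cells received IL-2 alone. The TCR group received 100 ng/mL gp33-41 for 4 h. The TCR+PI3Kdi group received the same peptide with 10 µM IC87114, an inhibitor of the p110δ catalytic subunit of PI3K. The TCR+MEKi group received the peptide with 2 µM PD184252, an inhibitor of the kinase MEK that activates ERK. DMSO was the vehicle, and no sorting step is described for these cultures. There was no group with an inhibitor but no peptide, so the inhibitors were measured only in stimulated cells. Transcripts were quantified by RNA sequencing of whole cultures and are given as FPKM, fragments per kilobase of exon scaled to sequencing depth, with mean ± SD and n = 3 throughout.

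The families act by different routes. ZFP36 proteins (ZFP36 is also known as tristetraprolin) bind AU-rich elements in the 3′ untranslated region (3′ UTR) of mRNAs such as Tnf and recruit the CCR4-NOT deadenylase. Regnase-1, the product of Zc3h12a, is an endoribonuclease that cuts stem-loops in 3′ UTRs, and it is itself cut by the protease MALT1 when the T cell receptor is triggered. Roquin-1 and Roquin-2, the products of Rc3h1 and Rc3h2, bind related stem-loops and also recruit the deadenylase. The proteins are further controlled by phosphorylation and proteolysis, which an mRNA measurement does not see.

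All 7 markers of CTL (Cd3e, Cd3g, Cd8a, Cd8b1, Ptprc, Gzmb and Prf1) were high, with Cd8a between 213 and 430 FPKM and Gzmb between 8279 and 13582 FPKM over the 12 samples. None of the listed B cell, myeloid, neutrophil, dendritic or red cell markers had a row in the table. Cd4 lay between 0.28 and 3.65 FPKM and was higher in the TCR samples (2.54 to 2.87) and TCR+PI3Kdi samples (1.96 to 3.65) than in the unstimulated (0.44 to 0.99) and TCR+MEKi samples (0.28 to 0.66), and Klrb1c, an NK cell receptor, lay between 1.31 and 6.23 FPKM and was highest without stimulation. Whether these low levels have a part in the results was not tested. In whole cultures, fewer cells of a type and less RNA per cell cannot be told apart.

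Some of the mRNAs of the decay factors carry the letters of the element that ZFP36 proteins bind. The core motif TATTTAT (written as DNA, on the strand of the mRNA) was found in the longest annotated 3′ UTR of 5 of the 7 genes, and the same 5 also carried the full nonamer TTATTTATT. Of the 9711 genes in the table with an annotated 3′ UTR, 30.7% had the core motif and 8.50% the nonamer. The counts overlap, because each nonamer contains a core motif, and they grow with the length of the 3′ UTR, which ran from 774 bases in Zfp36 to 7181 bases in Rc3h1 against a median of 1191 bases. Zfp36, Zfp36l1 and Zfp36l2 each had 3 core motifs, Rc3h2 had 3 and Rc3h1 had 2. The 3′ UTRs of Zc3h12a (856 bases) and Zc3h12d (2327 bases) had 0. For comparison Tnf had 8 core motifs in 764 bases and Csf2 had 9 in 317 bases. The 30-base stretches richest in the motif are shown for 4 of the genes and for these targets (GRCm38, GENCODE M21 transcripts). They let the single or paired sites in the stretches of these 4 genes be set against the closely packed motifs of the cytokines. The stretch of Zfp36l2 is not shown. The capitals mark TATTTAT. The stretches lie at chr7:28376957-28376986 on the minus strand for Zfp36, chr12:80108166-80108195 minus for Zfp36l1, chr1:160970043-160970072 plus for Rc3h1, chr2:37373286-37373315 minus for Rc3h2, chr17:35199677-35199706 minus for Tnf and chr11:54247324-54247353 minus for Csf2.
Zfp36: cttTATTTATgacgacttTATTTATtgtat
Zfp36l1: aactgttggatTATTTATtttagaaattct
Rc3h1: actttactcatTATTTATtgagatgaggag
Rc3h2: caaagacatttTATTTATtttactctgtaa
Tnf: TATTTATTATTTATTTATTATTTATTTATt
Csf2: aaaTATTTATTTATTTATTTATTTATtttt
In Zfp36 a pair of core motifs stood 8 bases apart, whereas in Tnf and Csf2 the stretch held 5 core motifs, overlapping or directly adjoining, and 4 nonamers. A match is a description of letters and does not show binding.

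**Figure D1:**
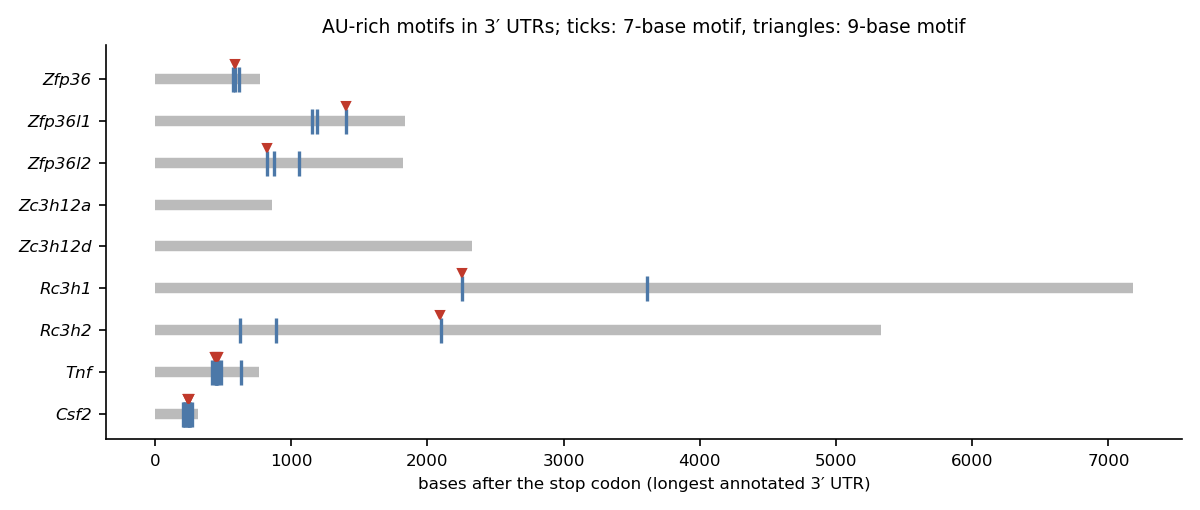
AU-rich motifs along the longest annotated 3′ UTR of the 7 decay factors and of Tnf and Csf2, with bases after the stop codon on the horizontal axis. Grey bars give the length of each 3′ UTR, blue ticks the 7-base core motif and red triangles the 9-base motif. Zc3h12a and Zc3h12d have 0 motifs, and the motifs of Tnf and Csf2 lie close together.

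The first comparison asked how antigen changes the mRNA of these factors. TCR stimulation raised Zfp36, Zfp36l1, Zc3h12a, Zc3h12d and Rc3h1 by more than 2-fold and lowered Zfp36l2 by more than 4-fold. A gene was called changed at a Benjamini-Hochberg adjusted p under 0.05, from limma on log2(FPKM + 0.1) of all genes, together with more than a 2-fold change. By this rule 6 of the 7 were called, 5 higher and 1 lower, where 20.0% of all 11022 genes were called, 8.87% higher and 11.1% lower. All 7 had an adjusted p under 0.05, as 68.6% of all genes did. The median log2 fold change of the 7 genes was 1.24, against -0.01 over all genes. The authors' TMM scaling leaves the median gene unmoved, but the summed FPKM rose from 480159 ± 13795 in unstimulated cells to 639396 ± 24340 in TCR cells. When every sample was rescaled to a common sum, a TPM scale, the median gene moved by -0.41 and the share of called genes that were higher fell from 44.4% to 22.1%, and 4 of the 7 decay factors were still called. Those 4 were Zfp36l1, Zfp36l2, Zc3h12a and Zc3h12d. On that scale 647 of all 11022 genes were called higher and 2276 lower.

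**Figure D2:**
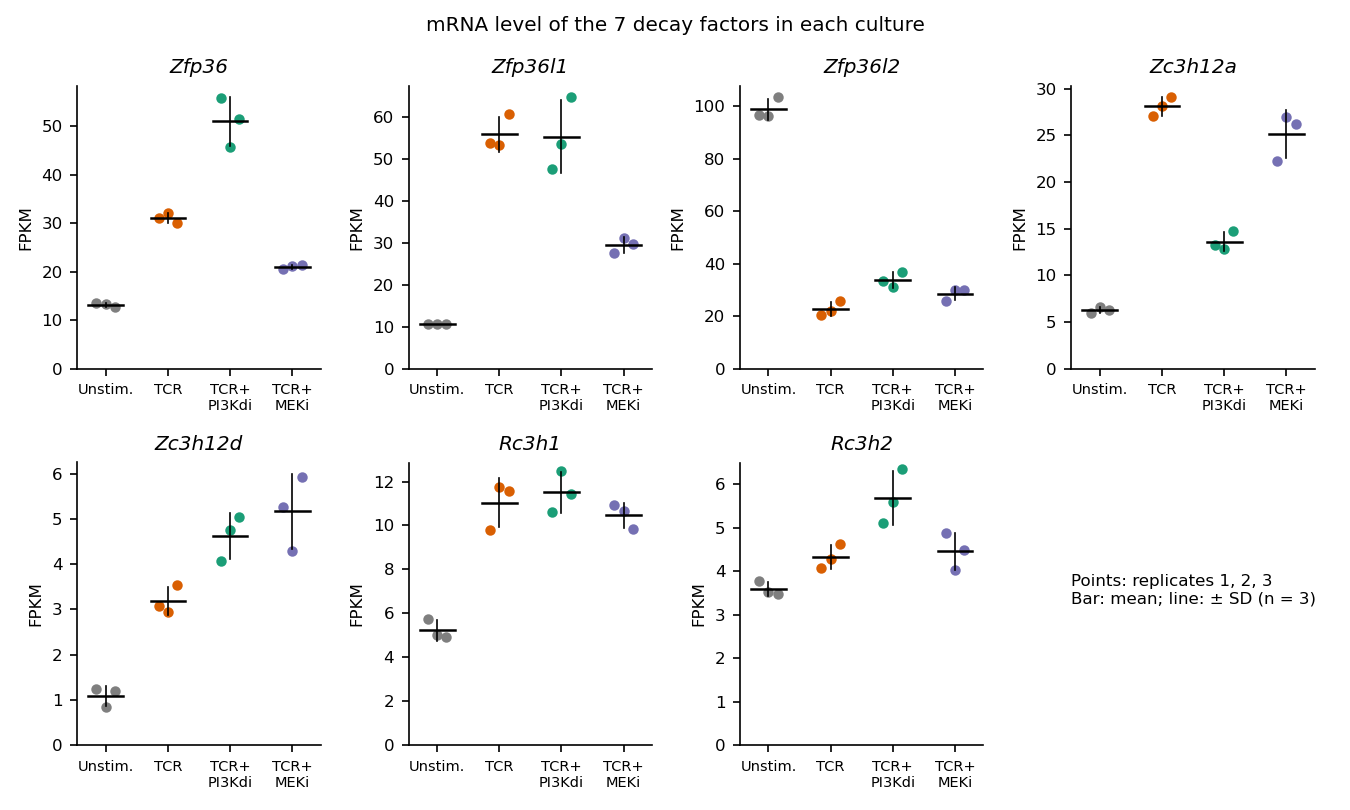
FPKM of the 7 decay factors in each of the 12 cultures, with the 4 groups on the horizontal axis of each panel, points for replicates 1 to 3, a bar for the mean and a line for ± SD (n = 3). Zfp36l2 is the only gene of the 7 whose unstimulated samples (96.3 to 103 FPKM) lie above those of every other group on the deposited scale.

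Zfp36 encodes tristetraprolin, the best studied factor of its family (chromosome 7, 28376784 to 28380253, minus strand, GRCm38). It was at 13.57, 13.21 and 12.63 FPKM in replicates 1, 2 and 3 of the unstimulated cells and at 31.07, 32.08 and 30.04 FPKM after TCR stimulation. With IC87114 it stood at 55.85, 45.64 and 51.43 FPKM, and with PD184252 at 20.55, 21.14 and 21.26 FPKM. The groups formed 4 separate levels that did not overlap, with the PI3Kδ inhibitor highest and the MEK inhibitor between unstimulated and TCR cells. TCR stimulation gave a log2 fold change of 1.24 (SE 0.07, adjusted p = 5.92e-10), which on the TPM scale was 0.82 and so under 2-fold. Zfp36 was 1.64-fold higher in TCR+PI3Kdi than in TCR cells (log2 fold change 0.71, SE 0.07, adjusted p = 6.67e-06) and 1.48-fold lower in TCR+MEKi than in TCR cells (log2 fold change -0.56, SE 0.07, adjusted p = 2.31e-05), both past the p threshold but under 2-fold. Between the inhibitors the gap was 2.43-fold (log2 fold change -1.27 for TCR+MEKi against TCR+PI3Kdi, SE 0.07, 95% interval -1.42 to -1.12, adjusted p = 1.6e-08). Limma treat, which tests against 2-fold itself, gave that gap an adjusted p of 0.103.

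Zfp36l1 (chromosome 12, 80107754 to 80113013, minus strand) rose most of the 7. Its unstimulated replicates were at 10.62, 10.54 and 10.63 FPKM and its TCR replicates at 53.79, 53.31 and 60.72 FPKM. With IC87114 the values were 47.61, 53.66 and 64.73 FPKM, and with PD184252 they were 27.46, 31.17 and 29.62 FPKM. The range of the TCR samples lay inside that of the TCR+PI3Kdi samples, while the TCR+MEKi samples lay apart from both and above the unstimulated ones. The rise with TCR was 5.28-fold (log2 fold change 2.39, SE 0.09, adjusted p = 8.75e-12). Against TCR the PI3Kδ inhibitor group differed by a log2 fold change of -0.02 with a 95% interval of -0.22 to 0.17 (adjusted p = 0.869), a value that was positive under either of the other scalings (TPM and quantile). The MEK inhibitor group was 1.90-fold lower than TCR (log2 fold change -0.92, SE 0.09, adjusted p = 2.99e-06). An antisense gene, Gm26669, shares 1672 of the 2990 annotated exon bases of Zfp36l1 (55.9%). Whether the authors counted reads by strand is not stated, so reads of these genes may not have been told apart. Zfp36 and Zfp36l2 share 3.60% and 2.97% of their exon bases with other genes on the opposite strand.

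Zfp36l2 (chromosome 17, 84183931 to 84187947, minus strand) was the main transcript of its family at rest and the only one of the 7 that fell. It was at 96.55, 96.32 and 103.49 FPKM in unstimulated cells and at 20.42, 21.87 and 25.86 FPKM after TCR stimulation. The TCR+PI3Kdi replicates were at 33.45, 31.00 and 36.87 FPKM and the TCR+MEKi replicates at 25.63, 30 and 29.82 FPKM. All stimulated samples lay far below the unstimulated ones, and the TCR and TCR+MEKi samples overlapped. Stimulation lowered the mRNA 4.35-fold (log2 fold change -2.12, SE 0.09, adjusted p = 2.46e-11). With IC87114 it was 1.49-fold above TCR (log2 fold change 0.57, adjusted p = 0.000346) and with PD184252 1.25-fold above TCR (log2 fold change 0.33, adjusted p = 0.0104), both under 2-fold, so that in the presence of either inhibitor it was still 2.92-fold and 3.47-fold below the unstimulated level.

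**Figure D3:**
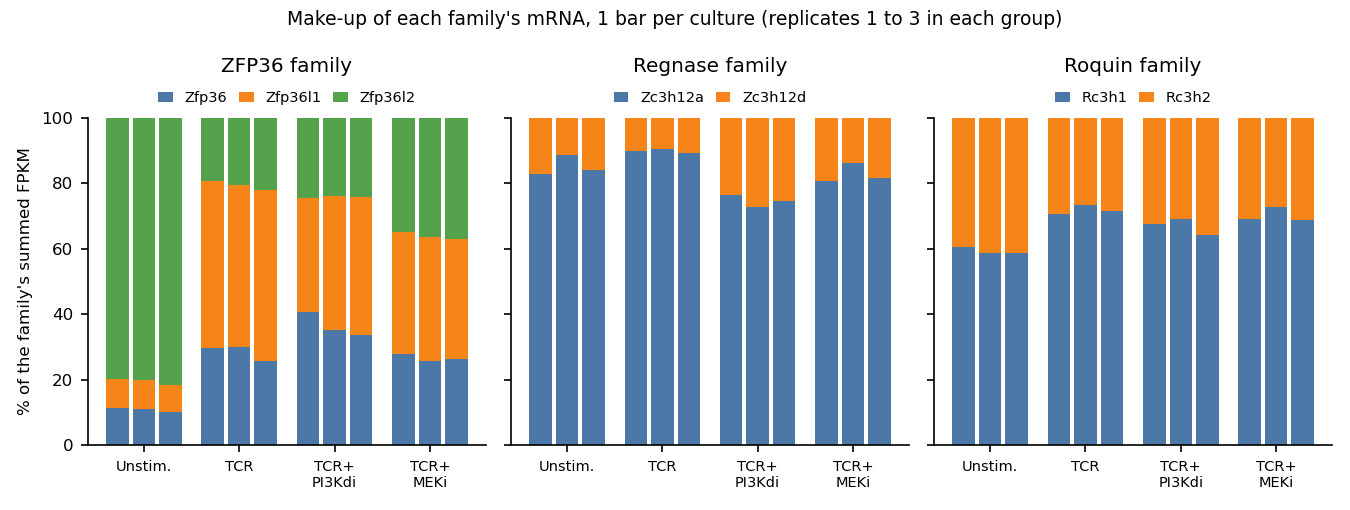
Percentage of the summed FPKM of each family that each gene held, 1 stacked bar per culture and 3 cultures per group. In the ZFP36 family Zfp36l2 held 80.0% to 81.6% in unstimulated cultures and 19.4% to 22.2% in TCR cultures.

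These opposite movements changed the make-up of the ZFP36 family. FPKM are per kilobase of exon, so levels of different genes may be summed within a sample, and a share does not depend on the scaling between samples. The summed FPKM of the 3 genes was 122.5 ± 3.7 in unstimulated, 109.7 ± 6.1 in TCR, 140.1 ± 11.7 in TCR+PI3Kdi and 78.9 ± 4.6 in TCR+MEKi cells. Zfp36l2 held 80.6% ± 0.9 of that sum at rest and 20.7% ± 1.4 after TCR stimulation. Zfp36l1 went from 8.65% ± 0.23 to 51.0% ± 1.2 and Zfp36 from 10.7% ± 0.7 to 28.4% ± 2.3. With IC87114 the shares were 36.5% ± 3.8 for Zfp36, 39.4% ± 4.1 for Zfp36l1 and 24.1% ± 0.3 for Zfp36l2. With PD184252 they were 26.6% ± 1.1, 37.3% ± 0.6 and 36.1% ± 1.1 in the same order. The ratio of Zfp36l2 to Zfp36l1 within a sample was 9.32 ± 0.36 in unstimulated and 0.405 ± 0.024 in TCR cells, with 0.617 ± 0.075 in TCR+PI3Kdi and 0.968 ± 0.037 in TCR+MEKi cells. No sample of a group came within the range of another group on this ratio. The antisense overlap of Zfp36l1 named above bears on each of these shares, and its part was not tested.

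The promoters of these genes were also read, because the factors stood in different orders across the groups. RefSeq windows of 300 bases, from 250 bases before the annotated start to 50 after it (GRCm38.p6), were found for 6 of the 7 genes, all but Zfp36l2. They were searched on both strands for the CArG box bound by serum response factor, for the EGR sites GCGTGGGCG and GCGGGGGCG, for the AP-1 site TGANTCA, the FOXO site GTAAACA and the CRE TGACGTCA. The Zfp36 window held a CArG box and the site GCGGGGGCG, which 1.63% and 2.91% of all 32851 windows hold, and 1.18% and 5.47% of the 7970 windows of genes in the table. The Zfp36l1 window held an AP-1 site, as did that of Rc3h1, where 7.81% of all windows and 4.78% of those of genes in the table do. The windows of Zc3h12a, Zc3h12d and Rc3h2 matched none of these letters, and GCGTGGGCG, GTAAACA and TGACGTCA were in 0 of the 6. The windows of Zfp36 (chr7:28379179-28379478, minus strand) and Zfp36l1 (chr12:80112964-80113263, minus strand) are given 5′ to 3′ with the matches in capitals.
Zfp36: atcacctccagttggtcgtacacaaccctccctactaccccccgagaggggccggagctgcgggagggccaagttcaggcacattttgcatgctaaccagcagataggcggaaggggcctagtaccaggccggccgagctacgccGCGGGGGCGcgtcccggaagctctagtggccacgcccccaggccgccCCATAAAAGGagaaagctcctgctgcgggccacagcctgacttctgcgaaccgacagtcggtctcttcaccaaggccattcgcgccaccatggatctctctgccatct
Zfp36l1: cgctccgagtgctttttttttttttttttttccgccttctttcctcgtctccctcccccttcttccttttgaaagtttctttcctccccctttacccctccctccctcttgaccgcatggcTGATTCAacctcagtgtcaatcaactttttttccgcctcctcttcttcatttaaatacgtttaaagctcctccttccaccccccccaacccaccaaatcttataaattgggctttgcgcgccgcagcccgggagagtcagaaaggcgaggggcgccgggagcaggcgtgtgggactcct
In Zfp36 the CArG box CCATAAAAGG lies 58 to 49 bases before the RefSeq start and the EGR site 105 to 97 bases before it. This window lies inside the GENCODE bounds given above for Zfp36, which on the minus strand begin at 28380253. In Zfp36l1 the AP-1 site lies 129 to 123 bases before the RefSeq start. These matches say nothing of whether a factor was bound in these cells.

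Zc3h12a, which encodes Regnase-1 (chromosome 4, 125118423 to 125127840, minus strand), was the only one of the 7 that was called against TCR with the PI3Kδ inhibitor. Its replicates were at 5.94, 6.63 and 6.31 FPKM in unstimulated cells and at 27.07, 28.16 and 29.08 FPKM in TCR cells. With IC87114 they were at 13.22, 12.78 and 14.71 FPKM and with PD184252 at 22.20, 26.98 and 26.21 FPKM. The TCR+PI3Kdi samples lay between the unstimulated and TCR samples, while the highest TCR+MEKi sample was just below the lowest TCR sample. TCR stimulation raised Zc3h12a 4.47-fold (log2 fold change 2.14, SE 0.08, adjusted p = 9.06e-12). It was 2.07-fold lower with IC87114 than without (log2 fold change -1.05, SE 0.08, 95% interval -1.22 to -0.87, adjusted p = 1.02e-06). That value lies at the 2-fold line. It was -0.86 on the TPM scale and -1.0 with a pseudocount of 1, under 2-fold both times, and limma treat gave an adjusted p of 1. The TCR+MEKi group differed from TCR by -0.17 with a 95% interval of -0.34 to 0.01 (adjusted p = 0.134), positive on the TPM scale but -0.17 there relative to the median gene. The difference between the inhibitors was itself past the p threshold, with a log2 fold change of 0.88 for TCR+MEKi against TCR+PI3Kdi (SE 0.08, adjusted p = 2.21e-06).

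Zc3h12d (Regnase-4, chromosome 10, 7832470 to 7870396, plus strand) had the lowest mean of the 7 in every group but TCR+MEKi, where Rc3h2 was lower, and rose in a different order. It was at 1.24, 0.84 and 1.2 FPKM in unstimulated cells, which amounts to as few as 36 estimated reads in a sample, and at 3.08, 2.93 and 3.54 FPKM in TCR cells. With IC87114 it was at 4.06, 4.76 and 5.05 FPKM and with PD184252 at 5.27, 4.29 and 5.93 FPKM. Both inhibitor groups lay above the TCR samples and overlapped each other. The rise with TCR was 2.91-fold (log2 fold change 1.47, SE 0.16, adjusted p = 9.95e-07). Against TCR it was 1.45-fold higher with IC87114 (log2 fold change 0.52, SE 0.16, adjusted p = 0.0260) and 1.62-fold higher with PD184252 (log2 fold change 0.67, SE 0.16, adjusted p = 0.00434), both under 2-fold, and the inhibitors differed from each other by 0.15 with a 95% interval of -0.19 to 0.49. Summed over the Regnase genes, the FPKM went from 7.39 ± 0.18 to 31.3 ± 1.2 with TCR and stood at 18.2 ± 1.4 with IC87114 and 30.3 ± 2.5 with PD184252. Zc3h12d held 10.2% ± 0.7 of this sum in TCR and 25.4% ± 1.8 in TCR+PI3Kdi cells.

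The Roquin genes had smaller changes. Rc3h1 (chromosome 1, 160906418 to 160974978, plus strand), the gene mutated in sanroque mice, was at 5.76, 5.01 and 4.90 FPKM in unstimulated and at 9.78, 11.76 and 11.59 FPKM in TCR cells. The TCR+PI3Kdi replicates were at 10.61, 12.48 and 11.45 FPKM and the TCR+MEKi replicates at 10.93, 10.65 and 9.83 FPKM. All 3 stimulated groups overlapped and lay above the unstimulated samples. The rise with TCR was 2.11-fold (log2 fold change 1.06, SE 0.10, adjusted p = 1.54e-07) and was under 2-fold on the TPM scale (0.66) and with a pseudocount of 1 (0.95). Against TCR the log2 fold change was 0.06 with IC87114 (95% interval -0.15 to 0.27) and -0.07 with PD184252 (95% interval -0.28 to 0.13), the latter 0.19 on the TPM scale but -0.08 relative to its median gene, and the former -0.02 without TCR replicate 1.

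Rc3h2 (chromosome 2, 37370069 to 37422903, minus strand) encodes Roquin-2 and was the only one of the 7 not called with TCR. Its values were 3.77, 3.51 and 3.47 FPKM in unstimulated, 4.08, 4.28 and 4.63 FPKM in TCR, 5.11, 5.59 and 6.35 FPKM in TCR+PI3Kdi and 4.87, 4.02 and 4.48 FPKM in TCR+MEKi cells. The TCR+PI3Kdi samples lay above all others, and the TCR and TCR+MEKi samples overlapped. With TCR the log2 fold change was 0.27 (SE 0.11, adjusted p = 0.0425), which was -0.14 on the TPM scale, where the median gene moved by -0.41, and 0.27 relative to that median. Against TCR it was 1.31-fold higher with IC87114 (log2 fold change 0.38, SE 0.11, adjusted p = 0.0191) and differed by 0.04 with PD184252 (95% interval -0.20 to 0.27, negative after quantile normalisation). Rc3h1 held 59.3% ± 1.0 of the Roquin sum at rest and 71.8% ± 1.4 after TCR stimulation.

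**Figure D4:**
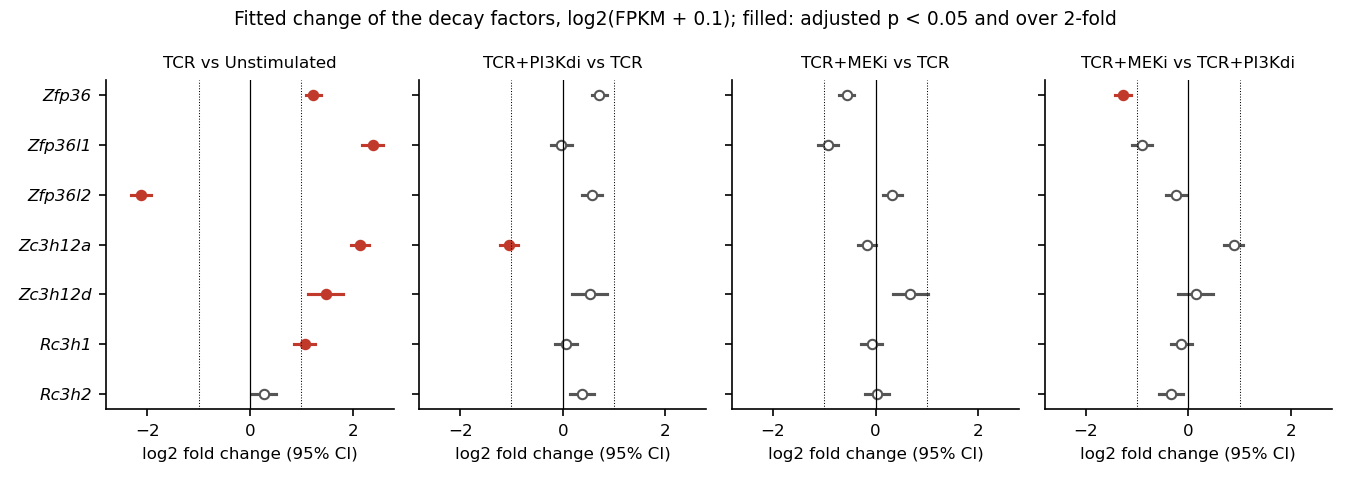
Log2 fold change of each decay factor on the log2(FPKM + 0.1) scale with its 95% interval, in 4 comparisons of 3 against 3 cultures fitted together by limma. Filled red points were called (adjusted p under 0.05 and over 2-fold) and dotted lines mark 2-fold. Zc3h12a with IC87114 lies at the 2-fold line, and the direction of Rc3h2 with TCR, and of Zfp36l1 with IC87114 and Zc3h12a, Rc3h1 and Rc3h2 with PD184252, turned on the TPM scale or under quantile normalisation.

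Comparing the inhibitors across the 7 genes, 1 of 7 was called in TCR+PI3Kdi against TCR, Zc3h12a, where 1.88% of all genes were called. Without regard to size, 5 of 7 had an adjusted p under 0.05 (4 higher and 1 lower), where 25.6% of all genes did. In TCR+MEKi against TCR limma called 0 of 7, where 3.49% of all genes were called. Of the 7, 4 had an unadjusted p under 0.05 (46.4% of all genes) and the same 4 an adjusted one, namely Zfp36 and Zfp36l1, which were lower, and Zfp36l2 and Zc3h12d, which were higher. Over all genes 37.1% had an adjusted p under 0.05 there. Rescaling to a common sum moved the share of called genes that were higher from 26.6% to 52.7% with IC87114 and from 28.1% to 61.5% with PD184252, and the median gene by 0.19 and 0.26. Both sets of values share the TCR samples. In the direct comparison of TCR+MEKi with TCR+PI3Kdi, in which the TCR samples cancel, Zfp36 alone was called, lower, where 3.09% of all genes were called and 1.71% were called lower. In it 4 of 7 had an adjusted p under 0.05 (28.9% of all genes). These were Zfp36, Zfp36l1 and Rc3h2, lower with PD184252, and Zc3h12a, higher. Zfp36l1 was at -0.90 there (95% interval -1.10 to -0.70) and was called, at -1.0, when TCR+PI3Kdi replicate 1 was left out.

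Set against unstimulated cells, 6 of 7 were called with IC87114 present, 5 higher and 1 lower, where 14.6% of all genes were called, 7.16% higher and 7.43% lower. On the TPM scale 4 were called, since Zc3h12a stood at 0.87 and Rc3h1 at 0.90. Of all genes 623 were called higher and 1272 lower on that scale. With PD184252 present 4 of 7 were called, 3 higher and 1 lower, where 13.4% of all genes were called, 6.95% higher and 6.46% lower. All 7 had an adjusted p under 0.05 in both comparisons, as 62.5% and 59.6% of all genes did. With PD184252, Zfp36 was 1.6-fold above the unstimulated level (log2 fold change 0.67, adjusted p = 8.45e-07). Rc3h1 stood at 2.00-fold (log2 fold change 0.99, adjusted p = 4.98e-07), just under the 2-fold line on the log2 scale, and it was called when Unstimulated replicate 1 or TCR+MEKi replicate 3 was left out, at 1.06 and 1.04. Zfp36l2 was lower than in unstimulated cells with either inhibitor, by log2 fold changes of -1.55 and -1.79.

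The general decay machinery to which these factors deliver their targets was mostly not called. With TCR 2 of 18 deadenylation genes were called, both higher, against 20.0% of all genes, and the list median was 0.08 against -0.01. These were Btg1, at 26.0 ± 1.3 FPKM without and 129 ± 9 FPKM with stimulation (log2 fold change 2.31, adjusted p = 5.97e-13), and Btg2, at 12.2 ± 0.7 and 46.2 ± 3.7 FPKM (log2 fold change 1.92, adjusted p = 3.96e-12). Both encode antiproliferative proteins that bind the CCR4-NOT deadenylase. Of 19 genes of decapping and 5′ to 3′ decay 1 was called, Xrn1, the cytoplasmic 5′ exonuclease, lower at 3.82 ± 0.92 FPKM than at rest, 9.53 ± 0.89 FPKM (log2 fold change -1.32, adjusted p = 6.69e-06). Limma called 0 of 16 exosome genes, with log2 fold changes from -0.91 to 0.58. Of the 16, 11 had an unadjusted p under 0.05 (71.2% of all genes). On the TPM scale 3 exosome genes were called, where 647 of all genes were called higher and 2276 lower. An adjusted p under 0.05 was reached by 12 of 18, 10 of 19 and 10 of 16 genes of these lists, against 68.6% of all genes. With either inhibitor against TCR, 0 genes of these 3 lists were called by limma, where 1.88% and 3.49% of all genes were. By limma adjusted p under 0.05 alone, 3, 3 and 0 genes were higher and 0, 3 and 6 lower with IC87114. With PD184252 1, 2 and 2 were higher and 3, 1 and 6 lower. Over all genes 25.6% and 37.1% passed. Btg2 had log2 fold changes of 0.55 with IC87114 and -0.64 with PD184252, and Btg1 of 0.10 and -0.70. Unadjusted p-values under 0.05 numbered 5 of 18, 7 of 19 and 9 of 16 with IC87114, against 37.7% of all genes, and 5, 4 and 11 with PD184252, against 46.4% of all genes.

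Among 13 other RNA-binding regulators of mRNA stability 1 was called with TCR, the further Regnase gene Zc3h12c. Its FPKM was 0.04, 0.06 and 0.07 in unstimulated cells, about 3 to 6 estimated reads, and 0.37, 0.56 and 0.53 in TCR cells (log2 fold change 1.89 on the log2(FPKM + 0.1) scale, SE 0.22, adjusted p = 2.05e-06), and it was not called with a pseudocount of 1. Of 14 kinases and signalling proteins that act on the decay factors 3 were called with TCR, all higher. Over all genes 20.0% were called with TCR and 8.87% were called higher, which applies to both lists. Malt1, the protease that cuts Regnase-1, rose from 14.4 ± 0.2 FPKM and reached 51.8 ± 2.5 FPKM (log2 fold change 1.83, adjusted p = 3.15e-13). Mapkapk2, the kinase MK2 that phosphorylates tristetraprolin, rose from 118 ± 4 FPKM and reached 271 ± 1 FPKM (log2 fold change 1.2, adjusted p = 9.98e-12), and Bcl10, a partner of MALT1, from 18.6 ± 2.2 FPKM, reaching 38.9 ± 1.8 FPKM (log2 fold change 1.06, adjusted p = 9.51e-09). On the TPM scale 1 of the 14 was called, where 647 of all genes were called higher and 2276 lower. With the inhibitors limma called 0 of 13 and 0 of 14 against TCR, where 1.88% (IC87114) and 3.49% (PD184252) of all genes were called. Unadjusted p-values under 0.05 numbered 5 and 5 with IC87114 (37.7% of all genes) and 6 and 7 with PD184252 (46.4% of all genes). By limma adjusted p under 0.05, 2 of the 14 were higher and 2 lower with IC87114 (25.6% of all genes). With PD184252 0 were higher and 6 lower (37.1% of all genes). Malt1 was 1.36-fold above TCR with IC87114 and Mapkapk2 1.48-fold below it.

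**Figure D5:**
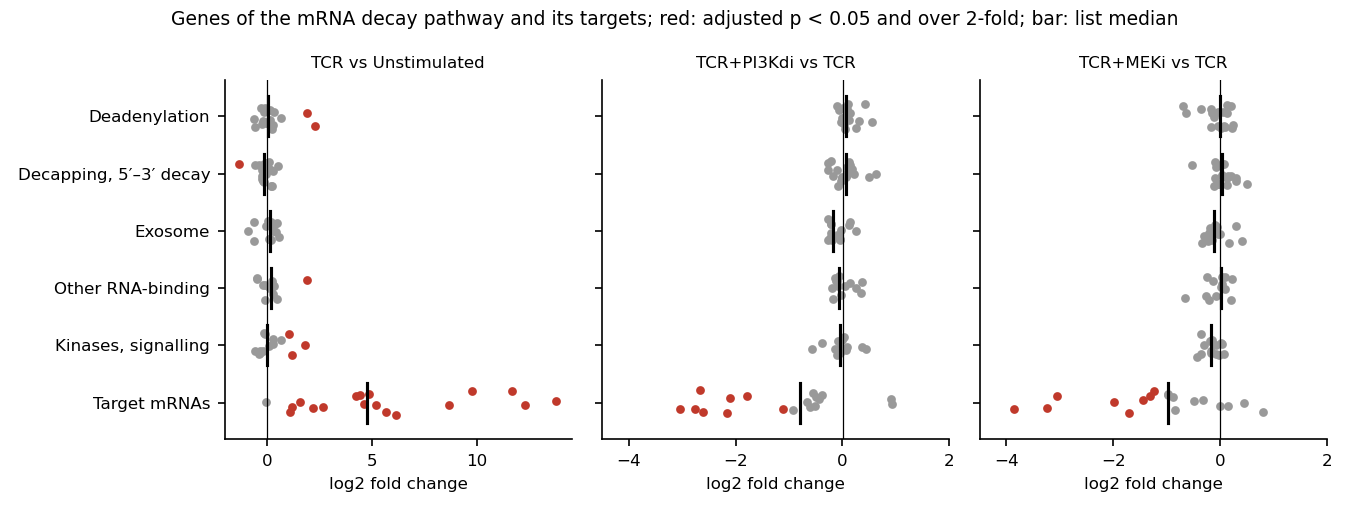
Log2 fold change of every gene in 6 lists of the mRNA decay pathway, in 3 comparisons, with 1 point per gene on the log2(FPKM + 0.1) scale, red where called, a thick bar for the list median and a thin line for the median of all genes. The first panel has a wider axis than the other panels. Of 18 target mRNAs, 17 were called higher with TCR (list median 4.75) and 8 were called lower with each inhibitor (list medians -0.80 and -0.97), with Icos and Ctla4 above 0 under both inhibitors. The target list was chosen with earlier results of these data known. The medians of the other lists lie between -0.18 and 0.19.

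The known target mRNAs of the decay factors were also followed. This list was chosen with earlier results of these data known. The authors had reported some of its genes, among them Tnf, Il2, Csf2 and Il3, as TCR induced and reduced by each inhibitor. The counts below are therefore a description of the list and no independent test. With TCR 17 of 18 were called higher, where 8.87% of all genes were, and the list median was 4.75. The 3 genes at or under 3 reads in every unstimulated sample lay above this median even at their lower bound. Placing them there therefore could not move it. The target not called with TCR, chosen after its values were seen, was Icos, a costimulatory receptor and target of Roquin. It was at 50.5 ± 5.5 FPKM in unstimulated and 48.8 ± 2.7 FPKM in TCR cells. Il3 was at least 5380-fold and Il2 at least 2800-fold higher with TCR, against a floor of 3 reads per unstimulated library at the estimated depth, and Ccl3 rose from 5.76 ± 1.03 to 19074 ± 1467 FPKM. Against TCR, 8 of 18 were lower and 0 higher with IC87114, where 1.38% of all genes were called lower and 0.499% higher, and 8 of 18 were lower and 0 higher with PD184252, where 2.51% were called lower and 0.980% higher. The list medians were -0.80 and -0.97. Without regard to size, limma gave 16 lower and 2 higher an adjusted p under 0.05 with IC87114 (25.6% of all genes in either direction), and 14 lower and 2 higher with PD184252 (37.1% of all genes). The 2 higher ones were Icos and Ctla4, an inhibitory receptor, in both comparisons. Icos had log2 fold changes of 0.93 with IC87114 and 0.81 with PD184252, and Ctla4 of 0.92 and 0.46. With PD184252 the remaining targets, Myc and Cd69, differed from TCR by 0.00 and 0.15 (adjusted p = 0.992 and 0.104). These 4 genes were named after their values were seen.

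The largest falls with IC87114 were in Il2 (705 ± 57 to 87.3 ± 24.1 FPKM, log2 fold change -3.05, adjusted p = 2.38e-05), Il6 (7.27 ± 2.26 to 1.01 ± 0.47 FPKM, log2 fold change -2.76, adjusted p = 2.75e-05) and Csf2 (3205 ± 97 to 505 ± 55 FPKM, log2 fold change -2.67, adjusted p = 3.40e-08). With PD184252 they were in Il2 (50.7 ± 17.1 FPKM, log2 fold change -3.85), Csf2 (347 ± 97 FPKM, -3.24) and Tnf (3252 ± 266 to 409 ± 147 FPKM, -3.05, adjusted p = 3.33e-08). The core motif TATTTAT was in the 3′ UTR of 11 of the 18 targets and the nonamer in 5. Of all genes with an annotated 3′ UTR 30.7% and 8.50% had them. The targets were listed as known ones, so these counts are a description. Steady-state mRNA does not separate synthesis from decay, so none of these values is a measure of decay.

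Some other genes followed the decay factors closely over the 12 samples, all but Mapkapk2 from outside the lists. Likeness was the Pearson correlation of log2(FPKM + 0.1) over all 12 samples among 10232 genes with a group mean of at least 1 FPKM in some group, and it is a description, since the points share 4 groups. Zfp36 was most like Cd53 (r = 0.990), Tigit (r = 0.981) and Peli1 (r = 0.979). Zfp36l1 was most like Myo10 (r = 0.994), Ncs1 (r = 0.992) and Dsp (r = 0.991), and Zfp36l2 like Fam78a (r = 0.993), Mfsd1 (r = 0.993) and Fgl2 (r = 0.992). Dsp had a mean of 0.027 FPKM at rest, so its values there were set mostly by the pseudocount of 0.1. Fgl2 stood at 243 FPKM at rest and 19.8 FPKM with TCR. Nearest to Zc3h12a were Phf15 (r = 0.996), Mapkapk2 (r = 0.996) and Sesn2 (r = 0.991), and Mapkapk2 had means of 118, 271, 183 and 258 FPKM in the unstimulated, TCR, TCR+PI3Kdi and TCR+MEKi groups. Zc3h12d was nearest to Galc (r = 0.981), Frmd6 (r = 0.972) and Camk4 (r = 0.971). Rc3h1 was nearest to Itgav (r = 0.994), Runx2 (r = 0.992) and Osbpl8 (r = 0.989), and Rc3h2 to Pde4b (r = 0.947), Golgb1 (r = 0.945) and Taok1 (r = 0.944). Among the 7 themselves Zfp36l1 and Rc3h1 were the most alike (r = 0.932) and Zfp36l2 ran opposite to the others, with r from -0.938 with Zc3h12a to -0.540 with Rc3h2.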

How the data were processed

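Messenger RNA of 12 CTL cultures was sequenced on TruSeq Stranded libraries. The authors aligned reads to mm10 with STAR 2.4.2a, counted them per RefSeq gene with Subread 1.5.0, removed genes with low counts, scaled by TMM in edgeR and deposited FPKM, computed with the summed non-overlapping exon length and rounded to 2 decimals. Replicates were not pooled. No count table was used here, so no count model was run. Columns were assigned by their headers, and 0 value columns were left unassigned.

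Limma 3.58.1 (R 4.3.3) was run on log2(FPKM + 0.1) of all 11022 genes and 12 samples, with a mean for each group (eBayes with trend, two-sided, Benjamini-Hochberg over all genes). The pseudocount understates changes of low genes. The procedure was tested on simulated data. The members and lists were chosen with earlier results of these data known. The genes named are the 7 factors, for each wider list and each of 3 comparisons every called gene where 5 or fewer were called and otherwise the 3 largest rises and falls, and the 3 genes most like each factor. Gene positions are from GENCODE M21 (GRCm38), and tables were made with Python 3.11.15.

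Read totals are not in the table. Steps between low FPKM put the TMM-scaled depth at about 7880000 to 13220000 reads, but only 62.3% to 76.7% of 40 to 65 low values lay within 0.15 of a whole read, so whole reads were not recovered. Read estimates and floors cover counting error only. Replicates share numbers 1 to 3 across groups. Deviations from the group means of same-numbered samples correlated by 0.24 to 0.45 between TCR+PI3Kdi and TCR, by 0.12 to 0.18 between TCR+MEKi and TCR and by 0.14 to 0.15 between the inhibitor groups, but by 0.00 to 0.15 between TCR and unstimulated samples, by -0.06 to 0.11 between TCR+PI3Kdi and unstimulated samples and by 0.12 to 0.15 between TCR+MEKi and unstimulated samples, over 9899 genes. The pairing comes from these correlations only, since whether a number stands for the same mouse is not stated. The p-values measure the spread between cultures within a group.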

Additional observations from a re-analysis of the deposited data

Results flagged for a closer look

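Effects of the inhibitors against TCR differed from each other in 4 of the 7 decay factors. The rule was a limma adjusted p under 0.05 for the direct comparison of the inhibitor groups, which 28.9% of all genes reached. The differences (TCR+MEKi less TCR+PI3Kdi, log2 fold change, 3 against 3 cultures) were -1.27 for Zfp36, which was lower in 3 of 3 TCR+MEKi than in any TCR+PI3Kdi culture, 0.88 for Zc3h12a, higher in 3 of 3, -0.90 for Zfp36l1, lower in 3 of 3, and -0.34 for Rc3h2, lower in 3 of 3. That of Rc3h2 had an adjusted p of 0.137 on the TPM scale and of 0.124 without TCR+PI3Kdi replicate 3. How many of all genes lay apart in 3 of 3 cultures was not counted.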

How the results depend on the processing

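The calls depended mainly on the 2-fold line. Without a fold threshold 5 of the 7 factors were called in TCR+PI3Kdi against TCR and 4 in TCR+MEKi against TCR. The counts were 4 between the inhibitors and 7 in TCR+MEKi against unstimulated cells. Of all genes 25.6%, 37.1%, 28.9% and 59.6% passed in these comparisons in the same order. Limma treat called 0 in TCR+PI3Kdi against TCR and 0 between the inhibitors. The call of Zc3h12a with IC87114 was lost, leaving 0, with a pseudocount of 1 and on the TPM scale. Leaving out each replicate gave 1 to 2 called between the inhibitors, the 2 without TCR+PI3Kdi replicate 1. Signs turned on the TPM scale for Rc3h2 with TCR (-0.14), Zfp36l1 with IC87114 (0.16), Zc3h12a with PD184252 (0.10) and Rc3h1 with PD184252 (0.19), and after quantile normalisation for Zfp36l1 with IC87114 (0.05) and Rc3h2 with PD184252 (-0.03), the cause of which was not tested. The TPM scale moved the median gene by -0.41 with TCR, 0.19 with IC87114 and 0.26 with PD184252. Relative to that median the 4 values that turned on the TPM scale had their first sign (0.27, -0.04, -0.17 and -0.08). Rescaling to a common sum shifts all genes of a sample about alike, so these signs follow by construction and are no separate support. Leaving out each replicate ran from -0.14 to 0.08 for Zfp36l1 and from -0.02 to 0.12 for Rc3h1 with IC87114, and from -0.03 to 0.11 for Rc3h2 with PD184252. With the replicate block 6, 1, 0, 1, 6 and 4 of the 7 were called in the 6 comparisons, as without it, and no call changed. The share of all genes called by treat, with a pseudocount of 1, without a replicate or with the block was not counted. Against unstimulated cells the TPM scale moved the share of called genes that were higher from 49.1% to 32.9% with IC87114 and from 51.8% to 39.7% with PD184252. The 84 family shares recomputed without a replicate moved by less than 1 SD. In groups this small the loss of a replicate cannot move a mean that far, so the shares were not tested by it. Among the 7 factors Zc3h12d had the fewest reads, and strand use in counting limits Zfp36l1.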
